A study of Saccharomyces cerevisiae with 2 samples.

Results

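The genes described here encode ribosome biogenesis factors of the budding yeast Saccharomyces cerevisiae. They were chosen by symbol as the nuclear protein-coding genes of the R64 annotation named UTP, NOP, RRP or NSA followed by a number. This gave 55 of 6002 open reading frames (ORFs), on 14 chromosomes, with 26 on the plus strand and 29 on the minus strand. None of them (0) has an intron in the annotation. All molecules came from 1 group, a BY4741 haploid laboratory strain in which SET2 was replaced by the kanMX4 cassette (set2::kanMX4), grown in YPAD, a rich glucose medium, to mid-log phase at OD 1. SET2 encodes the histone methyltransferase that modifies lysine 36 of histone H3 behind RNA polymerase II, and every molecule described here was made without it. The 2 biological replicate cultures share 1 pooled count column, so no value has a spread between replicates, no test was run, and no strain with SET2 intact was compared.

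Making a ribosome begins in the nucleolus with transcription of a long precursor RNA that is folded, chemically modified, cut and trimmed while ribosomal proteins join it. The UTP proteins named here belong mostly to the small-subunit processome, a large particle in which the UTP-A, UTP-B and UTP-C subcomplexes assemble around the precursor together with the U3 small nucleolar RNA. NOP1, NOP56 and NOP58 are core proteins of the box C/D small nucleolar ribonucleoproteins that guide ribose methylation, NOP10 belongs to the box H/ACA particles that guide pseudouridylation, the large-subunit factors act on the precursor of the large subunit, and the exosome is a ribonuclease complex that trims and degrades precursor RNA. In yeast the genes for such factors are known to be transcribed together during growth and to share the promoter motifs PAC (polymerase A and C box) and RRPE (ribosomal RNA processing element).

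Transcript isoform sequencing (TIF-Seq) locates, for single RNA molecules, where the capped 5′ end and the poly(A) end lie. Molecules with identical positions of both ends on a strand form an isoform, and the deposited count of an isoform is given as a number of molecules. The table held 6074514 molecules in 510263 isoforms. SET2 itself had 0 molecules. With a limit of 3 molecules for a count of 0, its share could be at most 4.94e-05% of the total. On either strand 43357 molecules overlapped the 55 coding spans. Of these, 40177 lay on the strand of the gene and were assigned to it (sense molecules), which was 0.661% of all molecules. A further 79 were on the same strand but were assigned to another ORF that they covered more, 249 were antisense and overlapped no ORF on their own strand, and 2852 were assigned to an ORF on the opposite strand.

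Sequences are given first for the stretches upstream of the most used start sites, because both motifs could be placed there relative to starts measured in these cells. They are 30 nt of the R64 genome from RefSeq, read 5′ to 3′ on the strand of the gene, with the motif match in capitals. The PAC core searched was GCGATGAG, and on the other strand CTCATCGC. The first 4 examples are GCGATGAG in NOP16, NSA2 and RRP1, which encode large-subunit factors, and in UTP6 of UTP-B, and the last is CTCATCGC in UTP11, a small-subunit processome protein.
NOP16, chrV:156685-156714, plus strand: aagaaaaatagGCGATGAGataaatttata
NSA2, chrV:414294-414323, minus strand: ttttccggacaGCGATGAGatgcactttta
RRP1, chrIV:618409-618438, minus strand: gaaaaaaaaatGCGATGAGctgaaaaaaat
UTP6, chrIV:1358991-1359020, minus strand: gaaagatctggGCGATGAGctaaatatcag
UTP11, chrXI:256583-256612, minus strand: ggctagatgagCTCATCGCgatttgaagaa

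The RRPE core searched was AAAAATTT, and on the other strand AAATTTTT. The examples are the members with the most molecules that held it: NOP15, a large-subunit factor, the 3 box C/D proteins NOP1, NOP58 and NOP56, and RRP17, an exonuclease needed for the large subunit. NOP1, NOP56 and NOP58 held more than 1 match each, and 1 is shown. A run of A followed by a run of T can match on both strands at overlapping positions, as in NOP1 and UTP25, and then counts as 2 matches.
NOP15, chrXIV:418623-418652, minus strand: ttttcactatgAAAAATTTtccgccataag
NOP1, chrIV:427127-427156, plus strand: tctttttcttgAAAAATTTttcaaattgga
NOP58, chrXV:898476-898505, minus strand: agaaatttggaAAATTTTTcaacctcatcg
NOP56, chrXII:545975-546004, plus strand: gatgggaaatgAAAAATTTtgtgcaattgc
RRP17, chrIV:1294545-1294574, plus strand: tttcacatttgAAATTTTTcaaatgtgatg

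Molecules that run from upstream of the start codon to past the stop codon of exactly 1 ORF are called full-ORF molecules, and 31 members had at least 50 of them. In the 200 nt upstream of the most used full-ORF start, 13 of these 31 members held PAC, which is 41.9% (95% Wilson interval 26.4 to 59.2), beside 5.51% of the 2376 ORFs that met the same minimum. RRPE lay there in 22 of 31 members, or 71.0% (53.4 to 83.9), beside 17.8% of all 2376 ORFs. Both cores lay there in 9 of 31 members, or 29.0%, beside 3.54% of all ORFs. A match is a stretch of letters and was not tested as a binding site.

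Most matches of the members lay between 40 and 140 nt upstream of the measured starts, a range that was not among the planned measures. The 13 PAC matches of the members lay 47 to 163 nt upstream, with a median of 75 nt, and 12 of them lay between 40 and 140 nt. The 119 PAC matches of ORFs that are no members had a median of 87 nt, with 73.9% between 40 and 140 nt. Of the members' 32 RRPE matches, 30 lay between 40 and 140 nt upstream (93.8%), with a median of 85.5 nt. In ORFs that are no members it was 73.0% of 507 matches, with a median of 101 nt. The other ribosome biogenesis genes described below count among these ORFs. They had 32 of 32 PAC matches and 91.5% of 94 RRPE matches in that range, so the placement is not particular to the members. PAC read GCGATGAG on the strand of the gene in 11 of 13 members, against 70 of 119 matches in ORFs that are no members. In the other ribosome biogenesis genes it was 18 of 32 matches, so they did not share the orientation of the members. RRPE of the members was split evenly, with 16 of 32 matches on the strand of the gene. Among the 9 members with both cores, the nearest PAC was closer to the start than the nearest RRPE in UTP5, UTP6, NOP16, NSA2, UTP25, UTP11 and NOP13. The order was the opposite in NOP7, a large-subunit factor, and in RRP3, a DEAD-box RNA helicase of small-subunit maturation. Between the bases of the 2 cores that lie nearest to the start, the distance was 16 nt in NSA2 and 85 nt in RRP3. This distance includes the length of the nearer core.

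**Figure D1:**
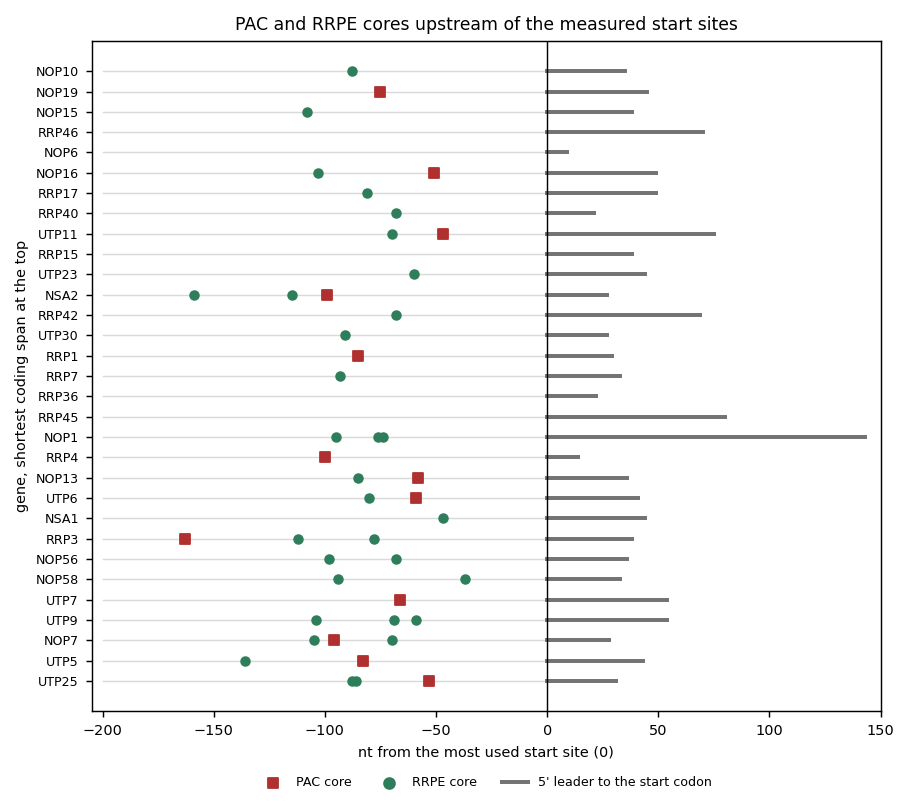
Positions of the PAC core (red squares) and the RRPE core (green circles) upstream of the most used full-ORF start site (0 on the x axis, in nt) in the 31 members with at least 50 full-ORF molecules, one gene per line, shortest coding span at the top; the thick grey line is the 5′ leader to the start codon. The marks crowd between 40 and 140 nt upstream, with 12 of 13 PAC and 30 of 32 RRPE matches there.

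To include members with few full-ORF molecules, the search was repeated in the 400 nt upstream of the start codon of every ORF. PAC was found in 24 of 55 members (43.6%), beside 4.60% of all 6002 ORFs, and RRPE in 43 of 55 members (78.2%), beside 18.1% of all ORFs. PAC was found in 3 of 6 UTP-A genes, 3 of 4 UTP-B genes, 9 of 16 genes for large-subunit factors and 8 of 14 genes for other small-subunit factors. PAC was found in 0 of 4 genes for box C/D and U3 proteins, and RRPE in 3 of those 4. The exosome genes had PAC in 1 of 7 (RRP4, a cap subunit) and RRPE in 4 of 7. Neither core was found in 8 members: the exosome genes RRP43, RRP45 and RRP46, the U3 protein gene RRP9, RRP36 of UTP-C, RRP15 of the large subunit, and NOP6 and NOP9 of the small subunit.

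Nearly all members had more molecules than ORFs of similar length. Similar length means ORFs that are no members and whose coding span is within 10% of the member's, with at least 20 such ORFs, and levels are numbers of sense molecules, not values per length. The members' median was 279 sense molecules (order-statistic interval over genes 227 to 402), against 117 (111 to 122) in ORFs that are no members. With each isoform counted once the members' median was 79, and no such median was computed for the other ORFs. Of 54 members that could be compared, 48 were above the median of ORFs of similar length (88.9%), beside 50% of 5945 ORFs. The median ratio of a member to that median was 2.40. The 6 members below it were NOP2, RRP40, RRP12, UTP22, UTP4 and NOP19.

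The most counted member was NOP15, which encodes an RNA-binding protein of early large-subunit precursors, with 7389 sense molecules, against a median of 284 in ORFs of similar length. It made up 18.4% of the members' sense molecules, and the first 6 genes together made up 50.8%. NOP6, a small-subunit RNA-binding factor, had 3154 sense molecules, against 261 in ORFs of similar length. RRP15, a large-subunit factor, had 3117, against 270. These are short genes of 663, 678 and 753 nt. RRP17 followed with 2010 sense molecules, against 268 at similar length.

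The box C/D core genes stood highest for their length among the role groups of more than 1 gene. NOP1, fibrillarin, the methyltransferase of the particle, had 2508 sense molecules, against 162 in ORFs of similar length. NOP58 had 2240, against 96, and NOP56 had 1975, against 98.5. The fourth gene of that group, RRP9, a U3-specific protein, had 128, against 82. The median ratio of the group to ORFs of similar length was 17.8, from 1.56 to 23.3. NOP10, the H/ACA gene and with 177 nt the shortest member, had 500 sense molecules, against a median of 10 in ORFs of similar length. Those 47 ORFs had quartiles of 0 and 296, and NOP10 lay at percentile 76.6 of them.

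The processome subcomplexes had lower median ratios than the box C/D genes. UTP-A had a median ratio of 3.27, from 0.636 in UTP4 to 7.96 in UTP9 and, beyond these, UTP10. UTP10 had 189 sense molecules, against a median of 1 in 94 ORFs of similar length. Their quartiles were 0 and 93.2, so many of those ORFs had few or no molecules and the ratio of UTP10 is not a usual contrast. UTP9 had 653 sense molecules, against 82 at similar length, and UTP5 had 432, against 87, while UTP8 had 140, against 88.5, and UTP15 had 127, against 96. In UTP-B, UTP6 had 746, against 119, UTP13 had 313, against 88, UTP21 had 170, against 89, and UTP18 had 118, against 84. UTP-B genes were above in 4 of 4, and the UTP-C genes RRP7 and RRP36 were above while UTP22 was below. UTP22, the longest gene of UTP-C, had 47 sense molecules, against 93.

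The large-subunit factors were above in 15 of 16 genes, with a median ratio of 3.28. The other gene was NOP2, a methyltransferase of the large ribosomal RNA, with 16 sense molecules, the fewest of all members, against 86 at similar length. NSA2, a factor of nucleolar large-subunit precursors, had 1078, against 235. RRP1 had 1675, against 212, NOP16 had 1582, against 253, and NOP7 had 400, against 83. The exosome genes lay nearer to other ORFs of their length, with a median ratio of 1.65, as did UTP-C with 1.46. The exosome ratios ran from 0.398 in RRP40, a cap subunit, to 2.31 in RRP45, a ring subunit. RRP6, the nuclear exonuclease of the complex, had 136 sense molecules, against 85.

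**Figure D2:**
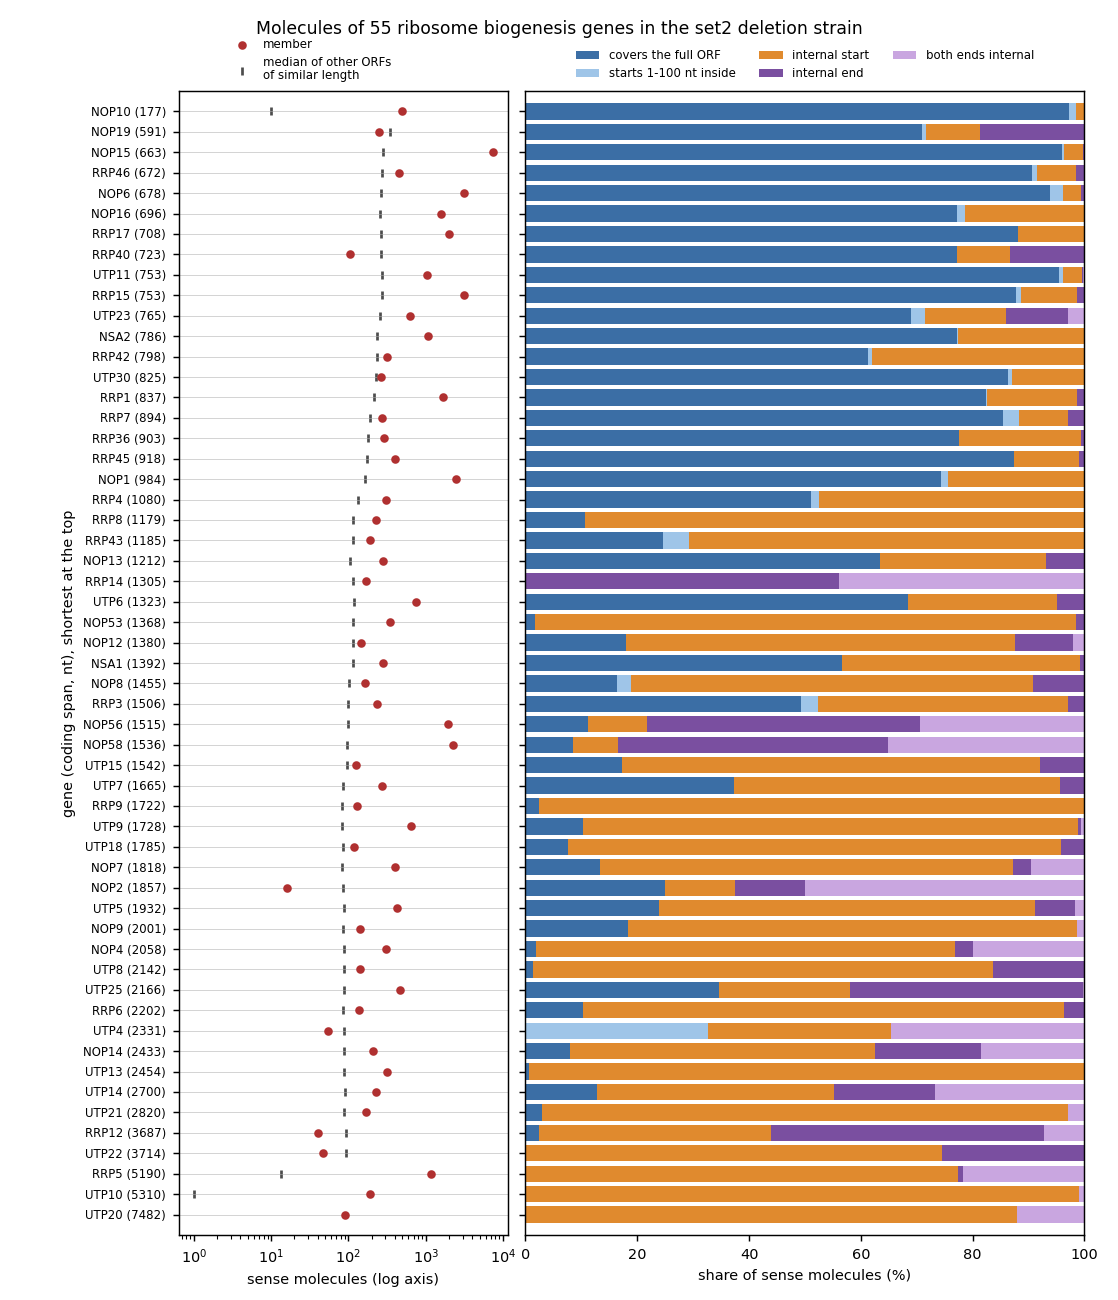
Left, sense molecules on a log axis for each of the 55 members (red points) and the median of other ORFs of similar length (grey ticks, absent for UTP20, which had too few ORFs of its length); right, the share of each member's sense molecules in each class, in percent. Genes run from the shortest coding span at the top to the longest at the bottom: the full-ORF share shrinks down the figure, and NOP56, NOP58 and RRP14 are filled mainly by molecules that end inside the coding span, as are NOP2 and RRP12, which have under 50 sense molecules.

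Untranslated regions (UTRs) of the members were about as long as those of other ORFs. For each gene the median length was taken over its full-ORF molecules where there were at least 20, which held for 38 members. The median 5′ UTR over members was 38 nt (interval 33 to 48, quartiles 27.2 and 49.8), against 40 nt in 2970 ORFs that are no members (quartiles 25 and 67). In 16 of 37 members compared (43.2%) it was longer than the median of ORFs of similar length, beside 49.5% of all 2958 ORFs compared. The median 3′ UTR was 106 nt (92 to 136, quartiles 77.2 and 142), against 117 nt (quartiles 85 and 163). In 14 of 37 members (37.8%) it was longer than at similar length, beside 49.3% of all ORFs.

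NOP1 had the longest 5′ UTR of the members, with a median of 121 nt and a range from the 10th to the 90th percentile of molecules of 83 to 149 nt. NOP9, which binds small-subunit precursor RNA, followed with 79 nt, and UTP11 with 75 nt. At the short end, the 5′ UTR of NOP6 was 9 nt (10th to 90th percentile 9 to 26), and 58.3% of its 2962 full-ORF molecules started at the same base, chrIV position 77975. The exosome gene RRP4 and UTP14, an activator of an RNA helicase in the processome, had medians of 14 nt each. The 6 exosome genes measured ran from 14 nt in RRP4 to 70 nt in RRP45. An ATG between the most used start and the start codon was found in 1 of 31 members (3.23%), RRP46, beside 10.1% of all 2376 ORFs.

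The longest 3′ UTRs were those of NOP58 with a median of 257 nt, NOP56 with 181 nt and RRP15 with 174 nt. In NOP58 the 10th to 90th percentile of molecules ran from 144 to 277 nt, so its full-ORF molecules ended at several places. The shortest were those of NOP8, a large-subunit factor, with 44 nt, RRP46 with 45 nt and UTP9 with 51 nt. The 3′ UTR of UTP6 was uniform, with the 10th and the 90th percentile of its 510 full-ORF molecules both at 70 nt. The genomic 10 nt after the end held at least 6 A in 98.6% of those UTP6 molecules, against 18.8% of full-ORF molecules over all members.

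**Figure D3:**
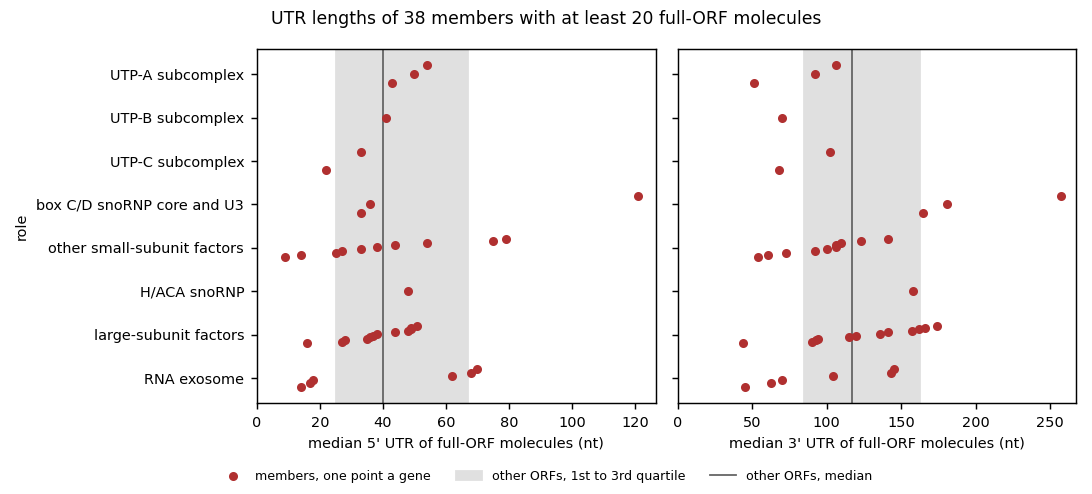
Median 5′ UTR (left) and 3′ UTR (right) in nt of the 38 members with at least 20 full-ORF molecules, one red point a gene, by role; the grey band spans the quartiles of ORFs that are no members and the line is their median. NOP1 at 121 nt on the left and NOP58 at 257 nt on the right stand furthest out, and most other points lie near or inside the bands.

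Transcription of a member usually began at 1 or 2 groups of neighbouring start sites. Start sites of full-ORF molecules with at least 2 molecules were joined when at most 10 nt apart, and clusters with at least 5% of the gene's full-ORF molecules were counted. Of 31 members, 15 had 1 cluster, 13 had 2 and 3 had 3. More than 1 cluster was found in 16 of 31 (51.6%), beside 44.0% of all 2376 ORFs. This count depends on the joining distance: with sites joined within 20 nt it was 4 of 31 (12.9%), beside 22.1% of all ORFs, so the members were then below all ORFs and not above. The middle range of starts, from the 10th to the 90th percentile of molecules, had a median width of 32 nt in the members and 32 nt in ORFs that are no members. It was wider than at similar length in 15 of 30 members (50%), beside 49.4% of all ORFs compared. The most used start had a pyrimidine at the base before it and a purine at the start itself, the initiator dinucleotide, in 29 of 31 members (93.5%; the others were RRP46 and RRP17), beside 96.7% of all ORFs.

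The 3 members with 3 clusters were the exosome ring genes RRP42 and RRP45 and the large-subunit factor gene NOP13. In RRP42 the clusters held 72.4%, 18.2% and 8.33% of full-ORF molecules, with main starts 69, 21 and 0 nt before the start codon. In RRP45 they held 71.8%, 18.2% and 9.12%, with main starts 80, 136 and 108 nt before it, so the minor clusters lay upstream of the major one. In NOP13 they held 80.2%, 10.2% and 7.34%, at 36, 3 and 69 nt. The most even split between 2 clusters was in UTP5, with 63.1% of its 103 full-ORF molecules starting mainly 43 nt and 32.0% mainly 64 nt before the start codon. NSA2 placed 88.0% of 833 full-ORF molecules in a cluster with its main start at 27 nt and 9.96% in one at 102 nt. RRP4 had, besides its cluster at 14 nt with 87.1% of the molecules, 11 molecules (7.10%) that started at a single base 1253 nt before the start codon. UTP9 was the most focused, with 83.6% of 67 full-ORF molecules starting at the same base.

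Many molecules of the members began inside the coding sequence. An internal-start molecule starts more than 100 nt inside the coding span and ends at or past the stop codon, and the internal-start share is its number over internal-start plus full-ORF molecules. Over the 55 members this was 25.8% (95% Wilson interval 25.4 to 26.3), from 9041 internal-start and 25938 full-ORF molecules, against 11.3% in ORFs that are no members. With each isoform counted once it was 51.6% in the members, and no such pooled share was computed for the other ORFs. The pooled shares depend on which genes hold the molecules: over genes with at least 50 sense molecules the median share was 48.5% in 51 members and 46.7% in 4141 ORFs that are no members. Of 49 members that could be compared at similar length, 20 were above the median (40.8%), beside 46.3% of all 4137 ORFs. Where ORFs were matched on length and also on sense molecules within 2-fold, 26 of 47 members were above (55.3%), beside 46.3% of all ORFs. Counting each isoform once gave 25 of 49 members (51.0%), beside 46.7%, so the side on which the members fell depends on the setting.

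The share went up with length in the members as in the other ORFs. In members of up to 1000 nt the median over genes was 11.8%, against 9.18% in ORFs that are no members, and from 1001 to 1500 nt it was 74.2%, against 46.5%. From 1501 to 2000 nt it was 77.5% in members, against 82.4%, and over 2000 nt it was 97.5%, against 99.1%. The window from 1001 to 1500 nt had 9 members with enough molecules, and their quartiles of 43.0% and 81.4% overlap those of the other ORFs, 27.9% and 69.3%. Inside it the median at similar length rose from 35.8% for RRP4 to 64.3% for NOP8. Against that median NOP13, UTP6 and NSA1 were below, and the others of the 9 were above. Molecule numbers were taken over all 10 members and 1342 other ORFs of that window, with no minimum of sense molecules. A member had a median of 37 full-ORF and 127 internal-start molecules, against 40 and 52 in the other ORFs.

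The members furthest above ORFs of similar length included 2 exosome genes. Of the other exosome genes, RRP4 was above ORFs of similar length, and RRP45, RRP6, RRP46 and RRP40 were below. RRP8, a methyltransferase of the large ribosomal RNA, had an internal-start share of 89.4% (84.8 to 92.8), against a median of 44.9% at similar length, from 203 internal-start and 24 full-ORF molecules. NOP53, a late large-subunit factor that brings the exosome's helicase to the precursor, had 98.2% (96.2 to 99.2), against 58.0%, from 330 and 6 molecules. The ring genes RRP43 and RRP42 had 74.2%, against 45.3%, and 38.3%, against 14.6%. NOP12, an RNA-binding large-subunit factor, had 79.4%, against 59.8%. These 5 genes were picked for the largest differences, so the size of a difference is no test. Among ORFs of similar length NOP53 lay at percentile 96.9 and RRP8 at 94.5. RRP42 lay at 82.7, RRP43 at 82.6 and NOP12 at 78.1.

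The 6 members furthest below are given next. UTP25, a helicase-like processome protein of 2166 nt, had a share of 40.3% (34.6 to 46.3), against 94.5% in ORFs of similar length, from 108 internal-start and 160 full-ORF molecules. UTP6 had 28.1% (24.9 to 31.5), against 54.1%. UTP14, of 2700 nt, had 77.0%, against 98.6%, and RRP3 had 47.5%, against 68.6%. NOP58 had 48.5%, against 69.4%, and NOP56 the same share of 48.5%, against 68.6%. In UTP25, UTP14, NOP58 and NOP56 many molecules ended inside the ORF, and these enter neither term of the share.

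**Figure D4:**
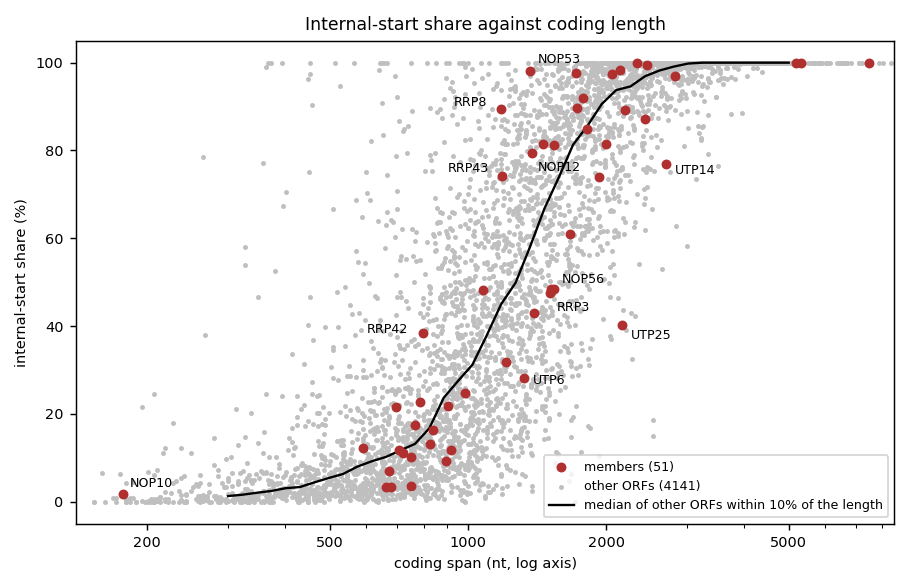
Internal-start share in percent against coding span in nt (log axis) for the 51 members with at least 50 sense molecules and internal-start or full-ORF molecules (red) and 4141 other ORFs (grey); the line is the median of other ORFs within 10% of the length. Members lie on both sides of the line, with RRP8, NOP53 and RRP43 far above it and UTP25 and UTP6 far below.

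Internal starts lay mostly late in the coding sequence. In 5 equal parts of the coding span, from the start codon to the stop codon, the members' internal-start molecules were distributed as 1.75%, 9.78%, 20.3%, 34.4% and 33.8%, against 3.13%, 12.3%, 23.2%, 32.9% and 28.4% in ORFs that are no members. Internal starts were grouped as above, and clusters of at least 10 molecules were kept, which gave 227 clusters in 46 members. The initiator dinucleotide was at the most used base of 22.0% of these (17.1 to 27.9), against 31.9% (31.1 to 32.7) of 12765 clusters in ORFs that are no members. The first ATG downstream was in the reading frame in 70 of 226 (31.0%), against 35.2% in ORFs that are no members.

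The 4 most counted internal clusters belonged to RRP5 and NOP53, and none of their main bases had the initiator dinucleotide. RRP5 encodes a large RNA-binding protein needed for both subunits. Its clusters, around 4878, 4477 and 4655 nt after the start codon, held 166, 159 and 148 molecules, and in the order 32, 84 and 11 of these began at the main base, so the second cluster was the sharpest. From the second, the first ATG was 80 nt further on and in frame, leaving 210 codons. The NOP53 cluster, at 1005 nt, held 141 molecules, which was 41.3% of all sense molecules of that gene. The sequences around their main starts are shown so that the base before and the base at the start, in capitals, can be read. They are 30 nt of R64 from RefSeq, 15 before the start and 15 from it, all on the minus strand and in the order of the clusters above.
RRP5, chrXIII:726231-726260: cgcaagtttgctcaATtagaatttgcaaag
RRP5, chrXIII:726632-726661: tgagtgagatcgagAAggctcgagagctcg
RRP5, chrXIII:726454-726483: tactattcatacaaAActgcttggtattta
NOP53, chrXVI:276510-276539: gaagagaaagtaaaATtgcaacaagagttg

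Some members had most of their molecules ending before the stop codon. Over all members 4923 sense molecules ended inside the coding span, with the start outside or inside, which was 12.3% of sense molecules, against 1.40% in ORFs that are no members. At least 25% of sense molecules did so in 7 of 52 members (13.5%), beside 6.40% of all 4206 ORFs with at least 50 sense molecules. The 7 were RRP14, NOP58, NOP56, UTP14, UTP25, NOP14 and UTP4. This measure was added after the values had been seen. NOP58 and NOP56 held 1871 and 1544 of these molecules, and without these 2 genes the members' share was 4.19%.

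NOP58 and NOP56 gave similar values. In NOP58 1871 of 2240 sense molecules (83.5%) ended inside the coding span, and in NOP56 1544 of 1975 (78.2%). In NOP58, 1272 molecules started upstream of the start codon and 190 of these covered the full ORF (14.9%). In NOP56 it was 222 of 1184 (18.8%). The largest group of ends in NOP58 lay 1436 to 1461 nt after the start codon with 1521 molecules, its main end 83 nt before the stop codon. That of NOP56 lay at 1417 to 1443 nt with 1094 molecules, its main end 89 nt before the stop codon. The other box C/D genes, NOP1 and RRP9, had 0 molecules with an internal end, although NOP1 had 2508 sense molecules.

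RRP14, a nucleolar protein gene of both subunit pathways, had 171 sense molecules, and 171 of them ended inside the coding span. Its most counted isoform, with 19 molecules, ran from 50 nt upstream of the start codon to 387 nt before the stop codon. UTP14 had 102 of 228 (44.7%), UTP25 had 194 of 462 (42.0%) and NOP14, a processome protein, had 79 of 211 (37.4%). UTP4 had 19 of 55 (34.5%). RRP5 was just below the limit, with 267 of 1183 (22.6%), of which 242 ended within 2 neighbouring bases 196 nt before the stop codon, and NOP4, a large-subunit factor, had 72 of 311 (23.2%).

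Sequence around these ends is shown because A-rich genome followed most of them. Each line has 10 nt up to and including the main end and, in capitals, the 10 nt after it, then 10 nt more, on the strand of the gene in R64 from RefSeq. The last, UTP5, is shown as an example of a group of ends near the start codon with no A-rich sequence after it.
NOP58, chrXV:896888-896917, minus strand: gaaaagaaggAAAAGAAGGAaaagaaggag
NOP56, chrXII:547513-547542, plus strand: tcgaagaaggAAAAGAAAGAaaagaaggaa
RRP14, chrXI:281392-281421, minus strand: attagaagccAAGAAGAATAagatggaggc
UTP14, chrXIII:85193-85222, plus strand: gagctaaagcAAAAGAAAAAgaagaaaggt
UTP25, chrIX:192895-192924, minus strand: atccagagccAAAAAGAAGAaggcgagagg
RRP5, chrXIII:726110-726139, minus strand: aagtgaaggcAAAAGATAAGaagaaggtgg
UTP5, chrIV:1267486-1267515, plus strand: ctacagtccgCTTATGACCCatcaggtcag

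A-rich ends are those with 6 or more A in the next 10 nt of genome. Of the members' molecules with an internal end only, 92.5% were A-rich, against 67.5% in ORFs that are no members. With both ends internal it was 98.0%, against 71.5%, and for full-ORF molecules 18.8%, against 20.7%. The box C/D genes NOP58 and NOP56 weigh most here, with 2044 of the members' 2932 molecules with an internal end only. In the other role groups the A-rich share of such molecules ran from 20% in the exosome genes to 93.2% in the large-subunit factors. In NOP58 and NOP56 99.8% of internal ends each were A-rich, and in UTP25 68.0%. UTP5 had 38 internal ends, of which 0% were A-rich, and its largest group held 21 molecules ending 24 to 44 nt after the start codon. The coding spans themselves differed in A content: a window of 30 nt with at least 20 A was present in 26 of 51 members (51.0%), against 18.5% of 4018 ORFs that are no members, among those with at least 50 sense molecules and a coding span of at least 300 nt. Members with such a window had a median of 4.04% of sense molecules ending inside, and those without 1.56%. In ORFs that are no members the medians were 3.51% with the window and 0% without it. The counts of genes with such a window were not matched on length. The median coding span was 1392 nt over all members and 1200 nt over all ORFs that are no members. The window was not counted for the other ribosome biogenesis genes. The part of A-rich sequence in these ends was not tested.

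**Figure D5:**
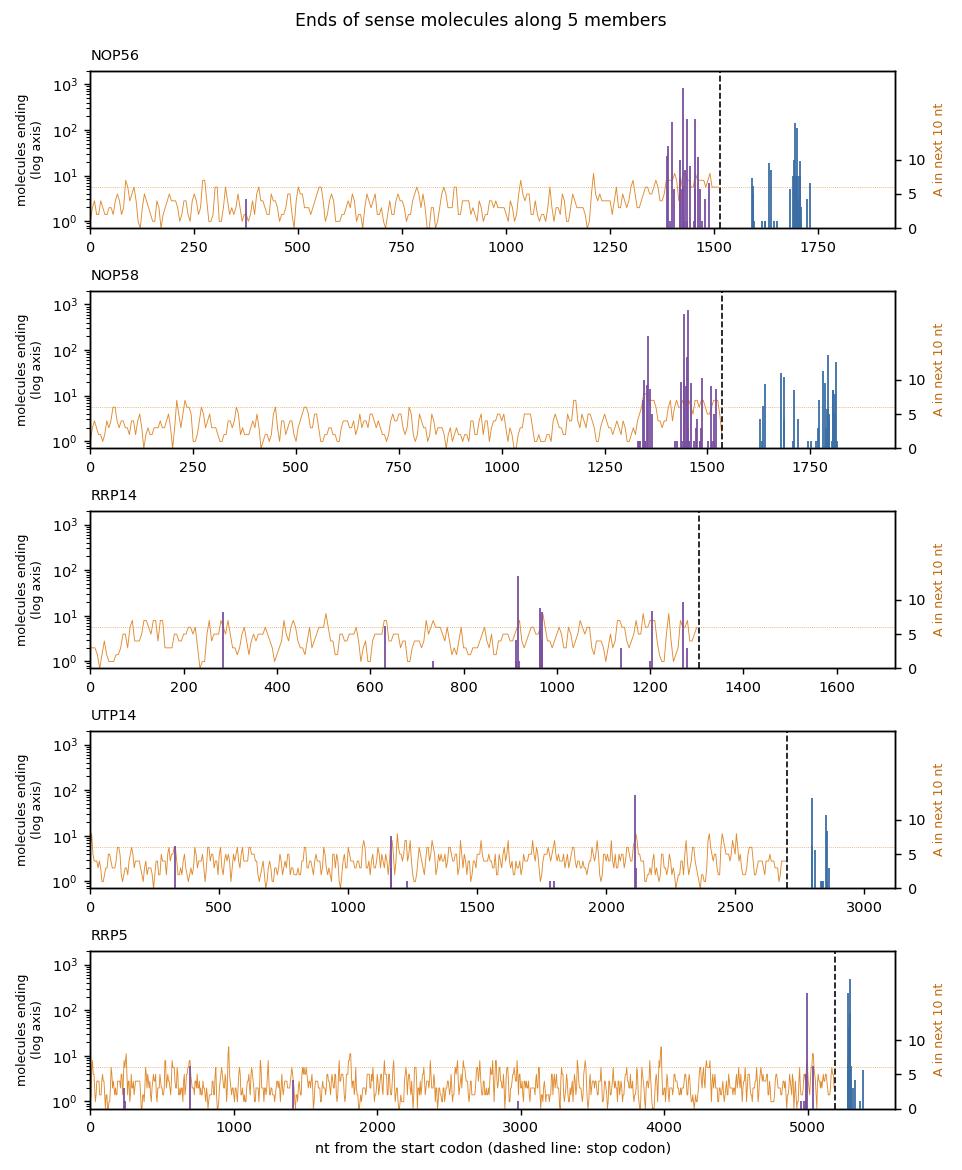
Molecules ending at each position (left axis, log) along 5 members, in nt from the start codon, with the stop codon dashed; purple lines are ends inside the coding span, blue lines ends past it, and the orange line is the number of A in the next 10 nt (right axis), with a dotted line at 6. NOP56 and NOP58 show their purple groups just before the stop codon, RRP14 has no blue line, and RRP5 has 1 tall purple line 196 nt before the stop codon.

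Long members were seen mostly as partial molecules. The 15 members over 2000 nt had 262 full-ORF molecules among 3719 sense molecules (7.04%), and 160 of these 262 were of UTP25. Of the 15, 10 had a full-ORF molecule, and over all lengths 6 members had none. UTP20 (7482 nt) and UTP10 (5310 nt), large scaffold proteins of the processome, had 91 and 189 sense molecules, and 0 of them started upstream of the start codon. RRP5 (5190 nt) had 1183 sense molecules, against a median of 13.5 in ORFs of similar length (quartiles 0 and 96.2). Of the 1183 molecules, 11 started upstream, with a median 5′ leader of 112 nt. UTP22 (3714 nt) had 12 upstream starts, and RRP12 (3687 nt), an export and maturation factor of HEAT-repeat type, had 21. RRP12 also had the longest molecule of any member, with 3902 nt, and it was the gene's only full-ORF molecule. In UTP4 (2331 nt) 0 molecules started upstream, and 18 of 55 belonged to 1 isoform that started 53 nt inside the coding span. Each of UTP20, UTP10, RRP5, UTP22 and UTP4 had 0 full-ORF molecules.

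Antisense molecules were few. The members had 249 antisense molecules, or 0.616% (0.544 to 0.697) of sense plus antisense, against 1.07% (1.07 to 1.08) in ORFs that are no members. The members' share was 1.18% with each isoform counted once, and 7.17% with all opposite-strand molecules counted. Neither was computed for ORFs that are no members, so the contrast is given for the main setting only. At least 1 antisense molecule was found over 27 of 55 members (49.1%), beside 64.0% of all ORFs. More antisense than sense molecules were found over 0 of 55 members, beside 7.88% of all ORFs. RRP1 had 54, UTP5 had 34 and UTP18, a UTP-B subunit, had 24, against 1675, 432 and 118 sense molecules. The 2852 molecules assigned to an ORF on the opposite strand were counted apart, and 1757 of them overlapped NOP8, which has 164 sense molecules of its own.

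A ribosome biogenesis gene, a member or a gene of the list described next, was the next ORF along the chromosome for 6 of 55 members (10.9%), beside 5.03% of all ORFs. NSA2 and LCP5 are divergent with 301 nt between the coding spans, and RRP3 and SSF1 are divergent with 297 nt, so the stretches searched upstream of both genes of a pair overlap. UTP9 with RIX1, NOP56 with PWP1 and UTP13 with RSA3 lie in tandem, and RRP15 and NOC4 converge.

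Most of these measures were also taken for 98 other ribosome biogenesis genes of the R64 annotation, chosen from general knowledge of the pathway. Their median was 368 sense molecules, and 88 of 97 (90.7%) were above ORFs of similar length, beside the members' 48 of 54. PAC lay within 200 nt upstream of the most used start in 32 of 69 (46.4%) and RRPE in 60 of 69 (87.0%). Their internal-start share was above that of ORFs of similar length in 34 of 94 (36.2%). Their median 5′ and 3′ UTRs were 37 and 98 nt. At least 25% of sense molecules ended inside the coding span in 11 of 95 (11.6%). Their pooled share of such molecules was 4.96%, against 12.3% in the members and 4.19% in the members without NOP56 and NOP58. More than 1 start cluster was found in 27 of 69 (39.1%).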

How the data were processed

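TIF-Seq libraries were made from 2 biological replicate cultures of 1 strain. The deposited table gives, per the file headers, a whole-number count for each combination of start, end and strand, in 1 value column for both libraries, with 0 other value columns of samples. CASAVA, Novoalign 2.07.10 and the R64 genome are named in the submitters' processing notes, with no role or order. Filters, removal of duplicates and the pooling of libraries are not given in the sources used here. No molecular identifiers are mentioned, so PCR copies may be counted, and intervals cover counting error only.

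Counts were used as deposited, with no scaling. At 12565 start sites with at least 30 molecules, 76.4% had the initiator dinucleotide in R64, and at most 28.4% when positions were moved by up to 20 nt. On 0 of 16 chromosomes did a position lie past the end. Each isoform was assigned to the ORF it covered or, where it covered none, to the ORF on its strand that it overlapped most. Molecules starting 1 to 100 nt inside an ORF formed a class of their own. Analyses used Python 3.11.15, numpy 2.4.6, pandas 2.3.3 and SciPy 1.17.1, and the class assignment was tested on simulated data, where 14460 of 14460 isoforms were recovered.

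The members and gene lists were chosen with earlier results of these data known. A rule named the members at the extremes of each measure, all over 3000 nt and 6 representatives of roles, and other members given with values to fill out a role group, such as NOP16, UTP15 and RRP40, were chosen after values had been seen. The internal ends, the A-rich windows, the internal start clusters' sequences and the neighbouring genes were added after values had been seen, and so were the genes named for them. Of 99 listed other biogenesis genes, 98 matched a symbol in R64. Alternatives covered the counting of isoforms, minimum counts, the limits for similar length, the cluster gap and the motif window.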

Additional observations from a re-analysis of the deposited data

How the results depend on the processing

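Of 35 alternatives to 10 results, 24 kept the value within its interval or the count within 1.5 times, and 11 moved it. A kept count could still change side against all ORFs. Members above the similar-length median internal-start share made up 40.8%, beside 46.3% of all ORFs. They made up 51.0%, beside 46.7%, with each isoform counted once, and 55.3%, beside 46.3%, when also matched on sense molecules. In the other settings the members stayed below all ORFs. With each isoform counted once, the median of sense molecules was 79 in place of 279, the internal-start share 51.6% in place of 25.8%, and the antisense share 1.18% in place of 0.616%. The internal-start share was 23.8% with isoforms of at least 2 molecules, 25.4% with starts more than 200 nt inside, 20% over members of at most 2000 nt, and 31.8% without NOP15, a setting chosen after seeing the data. Joining start sites within 20 nt left 4 of 31 members (12.9%) with more than 1 cluster in place of 16, beside 22.1% of all ORFs. Counting all opposite-strand molecules gave an antisense share of 7.17%. At least 10% of molecules ended inside the coding span in 16 of 52 members, beside 15.2% of all ORFs. At least 50% did so in 3 of 52 members, beside 2.31% of all ORFs. These limits were chosen after seeing the data. The cause of these moves was not tested.

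No paired analysis was possible because the replicates share 1 pooled column, and leaving out a replicate could not be run. The levels of members over 2000 nt rest on partial molecules, and 3 members had under 50 sense molecules. Counts include PCR copies to an unknown degree.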
